A study of Mus musculus with 23 samples.

Results

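Tbr1, Eomes, Bcl11a, Bcl11b, Fezf2, Sox5, Nr4a2, Cux1 and Cux2 encode transcription factors of the cortical layers and the subplate, and their chromatin was described here in 8 histone mark peak lists of the developing mouse cortex. They were chosen by name, by a rule that uses no value of the lists but with earlier results of these data known, and are 9 of the 21938 protein-coding genes of GENCODE M21 on chromosomes 1 to 19, X and Y. For each gene, the peaks within 5 kb of its transcription start site (TSS, the 5′ end of the annotated gene), in the rest of its body, and up to 100 kb beyond either end were collected from every list.

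The cortex is built from progenitors that line the ventricle and from neurons that settle in layers according to their birth. Eomes (Tbr2) marks intermediate progenitors and Tbr1 their early-born neurons, Fezf2 and Bcl11b (Ctip2) direct deep-layer neurons that project to the brainstem and spinal cord, Sox5 and Nr4a2 (Nurr1) act in subplate and deep-layer neurons, and Cux1 and Cux2 are best known from the upper layers. Acetylation of lysine 27 of histone H3 (H3K27ac) is found at active promoters and enhancers, whereas trimethylation of the same residue (H3K27me3) is laid down by Polycomb repressive complex 2 at silent developmental genes.

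The study profiled both marks by ChIP-seq in cells of the cerebral cortex of Tg(Ebf2-EGFP)FB58Gsat mouse embryos, sorted by EGFP fluorescence. All groups carried this transgene, in which sequences of Ebf2 drive EGFP, and the labels name no treatment. Ebf2-EGFP- cells were taken at E11.5 and are mostly neural progenitors, while Ebf2-EGFP+ cells came from E11.5 and from the later stages E13.5 and E15.5. The EGFP+ cells are mostly preplate neurons at E11.5, including subplate neurons, and increasingly Cajal-Retzius cells later, so that neurons of the cortical plate were not a group of their own. Of 23 samples in 12 groups, 15 were ChIP and 8 input samples. Each of the 8 ChIP groups held 2 libraries and gave 1 peak list, with the exception of Ebf2-EGFP- H3K27ac, represented by 1 library.

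All values below are peaks of these lists, since no read counts were used, and sequencing depth is unknown. A single list stood for each group, which allowed neither a replicate error nor a test, and counts of the 9 genes are therefore set beside the share of all 21938 genes in the same list. The H3K27ac lists held 1386 to 102881 peaks and the H3K27me3 lists 1438 to 48963, and a longer list marks more genes of any kind. As a check of the labels, peaks of H3K27ac lay at the starts of the cortical genes Emx1 and Emx2 in all 3 lists of Ebf2-EGFP+ cells, but at neither in Ebf2-EGFP- cells. The start of Ebf2 itself was covered over 151 bp at E11.5 and 147 bp at E13.5, and had no H3K27ac peak at E15.5.

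Parts of 6 sites on which the description turns are shown first. Each is the stretch shared by the peaks named with it, outside annotated UTRs, read from GRCm38 on the strand of the gene, with CpG dinucleotides in capitals because CpG-rich sequence is where Polycomb marks and broad acetylation both commonly occur. The Tbr1 site (chr2:61805148-61805289, plus strand, coding exon) lay in peaks of all 4 H3K27ac lists and of the H3K27me3 list of Ebf2-EGFP- cells. The Bcl11a site (chr11:24079817-24079900, plus strand, intron) lay in the H3K27me3 peak of E13.5 Ebf2-EGFP+ cells, the single such peak within 5 kb of the 5′ end of any of the 9 genes in those cells, and in H3K27ac peaks of Ebf2-EGFP- cells and of E15.5 Ebf2-EGFP+ cells. The Bcl11b promoter (chr12:108003855-108003995, minus strand, upstream of the gene), the Cux2 promoter (chr5:122050103-122050245, minus strand, upstream of the gene) and the Sox5 upstream site (chr6:144826922-144826985, minus strand, intergenic) were acetylated at all 3 stages of Ebf2-EGFP+ cells, and that of Cux2 lay in an H3K27me3 peak of Ebf2-EGFP- cells as well. The Bcl11b stretch, at -393 to -253 bp from the TSS, lay outside the RefSeq promoter of the gene (chr12:108003365-108003664). No peak of any list touched that RefSeq promoter. The Nr4a2 promoter (chr2:57124004-57124261, minus strand, upstream of the gene) was acetylated at E11.5 and E15.5 but had no peak at E13.5.
Tbr1 site: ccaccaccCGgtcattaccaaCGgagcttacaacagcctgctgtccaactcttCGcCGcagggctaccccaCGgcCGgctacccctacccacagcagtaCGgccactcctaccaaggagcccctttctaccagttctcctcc
Bcl11a site: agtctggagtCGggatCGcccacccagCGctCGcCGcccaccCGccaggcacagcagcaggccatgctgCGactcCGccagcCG
Bcl11b promoter: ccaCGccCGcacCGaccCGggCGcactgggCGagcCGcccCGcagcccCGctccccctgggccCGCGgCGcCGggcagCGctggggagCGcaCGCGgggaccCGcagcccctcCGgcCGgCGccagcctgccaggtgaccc
Cux2 promoter: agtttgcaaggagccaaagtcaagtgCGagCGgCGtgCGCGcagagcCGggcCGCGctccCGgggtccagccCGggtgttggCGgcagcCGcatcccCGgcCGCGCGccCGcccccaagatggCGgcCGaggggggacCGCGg
Sox5 upstream site: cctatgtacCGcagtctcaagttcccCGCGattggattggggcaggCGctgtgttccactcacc
Nr4a2 promoter: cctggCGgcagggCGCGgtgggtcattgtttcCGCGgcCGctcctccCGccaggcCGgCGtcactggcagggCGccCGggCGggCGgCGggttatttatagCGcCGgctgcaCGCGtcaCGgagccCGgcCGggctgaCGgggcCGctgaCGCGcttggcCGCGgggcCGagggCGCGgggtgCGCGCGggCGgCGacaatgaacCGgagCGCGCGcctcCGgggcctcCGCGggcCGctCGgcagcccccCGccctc

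The Nr4a2 promoter held 45 CpGs in 258 bp, more than 99.2% of windows of that length centred on the 37055 H3K27ac peaks of E11.5 Ebf2-EGFP+ cells. The Bcl11b and Cux2 promoters held 21 CpGs each, which was more than in 95.0% and 94.7% of such windows of their own lengths. For Bcl11b this concerns the stretch shown, with a GC content of 85.1%, and not its RefSeq promoter, which had 43.0%. The Tbr1 site, with 7 CpGs in 142 bp, and the Sox5 upstream site, with 4 in 64 bp, lay nearer the middle, above 62.2% and 67.0% of windows. The Bcl11a site held 9 CpGs in 84 bp, above 84.3%.

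In the full lists, H3K27ac covered the starts of nearly all the factors in Ebf2-EGFP+ cells and of fewer in Ebf2-EGFP- cells. Within 5 kb of the TSS, an H3K27ac peak was listed for 9 of the 9 genes in E11.5 Ebf2-EGFP+ cells, against 49.9% of all genes. At E13.5 it was listed for 8, Nr4a2 being the exception, against 60.9%, and at E15.5 for 9, against 52.3%. In E11.5 Ebf2-EGFP- cells 3 of the 9 were marked (Tbr1, Bcl11a and Bcl11b), against 4.17% of all genes, in a list that is the shortest of the mark and rests on 1 library. In these sorted populations a smaller share of cells carrying a mark and a weaker mark per cell cannot be told apart. H3K27ac at all 3 stages of Ebf2-EGFP+ cells was found at 8 of the 9, against 33.1% of all genes. These counts depended on list length: among the 1386 widest peaks of each list, the length of the Ebf2-EGFP- list, 2, 1 and 4 of the 9 starts were marked at the 3 stages of Ebf2-EGFP+ cells. In Ebf2-EGFP- cells, whose list kept all its peaks, the count stayed at 3, so that the large difference was not seen at equal length.

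In the full lists, H3K27me3 at the starts was more frequent in Ebf2-EGFP- than in Ebf2-EGFP+ cells at E11.5, in lists of 48963 and 6387 peaks. In Ebf2-EGFP- cells, 7 of the 9 starts had a peak, all except Fezf2 and Cux1, against 48.2% of all genes. In Ebf2-EGFP+ cells there was none at E11.5, against 4.92%, 1 at E13.5 (Bcl11a), against 9.31%, and none at E15.5, against 1.06%. The H3K27me3 list of Ebf2-EGFP- cells also marked the starts of 3 of 4 housekeeping genes (Gapdh, Ppia and Hprt), 2 of 4 endothelial and 2 of 4 microglial markers, and 0 of 4 erythroid markers. Its part in the 7 of 9 was not tested. With peaks of at least 300 bp alone, 1 of the 9 starts (Nr4a2) had an H3K27me3 peak in that list. Among the 1438 widest peaks of each H3K27me3 list, the length of the shortest, the E11.5 counts were 0 in Ebf2-EGFP- and 0 in Ebf2-EGFP+ cells. The Ebf2-EGFP+ count was already 0 in the full list. With the Ebf2-EGFP- list lowered at random to that length, 0.263 starts would be expected. So short a list could hardly show a difference, and whether it holds at equal length was not decided.

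**Figure D1:**
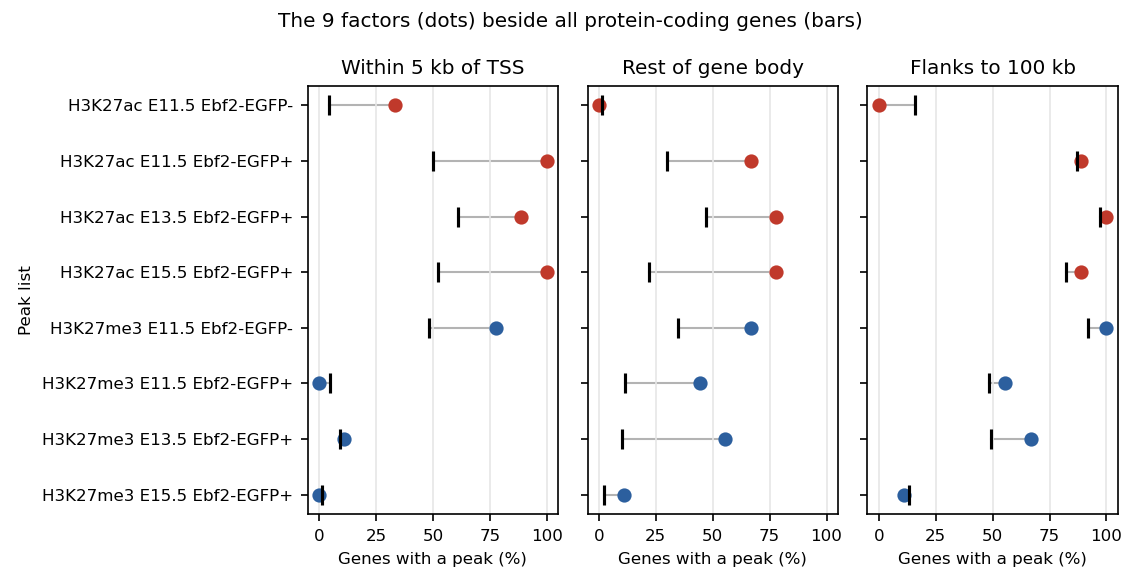
Share of genes with at least 1 peak (percent, horizontal axis) in each of the 8 peak lists (vertical axis), in the TSS window, the rest of the gene body and the flanks. Dots are the 9 factors (red H3K27ac, blue H3K27me3) and black bars all 21938 protein-coding genes. For H3K27ac in Ebf2-EGFP+ cells the dots stand well above the bars at the TSS (9 of 9 against 49.9% at E11.5) and in the body (7 of 9 against 21.8% at E15.5), and close to them in the flanks. Shares are not adjusted for body length, from 1.09 to 949 kb among the 9, or for list length. Among the 1386 widest peaks of each H3K27ac list, 2, 1 and 4 of the 9 starts were marked by stage in Ebf2-EGFP+ cells, and 3 in Ebf2-EGFP- cells.

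Putting both marks together, 3 genes carried H3K27ac and H3K27me3 within 5 kb of the TSS in Ebf2-EGFP- cells (Tbr1, Bcl11a and Bcl11b), a state held by 3.42% of all genes. Another 4 carried H3K27me3 only (Eomes, Sox5, Nr4a2 and Cux2), against 44.7%, and 2 carried neither (Fezf2 and Cux1), against 51.1%. In E11.5 Ebf2-EGFP+ cells all 9 carried H3K27ac only, the state of 46.4% of genes. At E13.5, 7 were H3K27ac only, against 52.5%, with Bcl11a in the class with both marks (8.39%) and Nr4a2 in the class with neither (38.1%). At E15.5 all 9 were again H3K27ac only, against 51.5%. In all, 7 of the 9 genes had H3K27me3 in Ebf2-EGFP- cells and H3K27ac in Ebf2-EGFP+ cells of E11.5, a pairing found at 34.8% of all genes.

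A pairing within a 5 kb window does not place both marks on the same bases. Within Ebf2-EGFP- cells, 1 of the 3 H3K27ac peaks, that of Tbr1, overlapped an H3K27me3 peak of the same cells. Those of Bcl11a and Bcl11b met none. Likewise, the H3K27me3 peak near the Bcl11a start at E13.5 met no H3K27ac peak of that stage. The H3K27me3 peak of Ebf2-EGFP- cells itself overlapped an H3K27ac peak of E11.5 Ebf2-EGFP+ cells at 5 of the 9 genes (Tbr1, Eomes, Bcl11a, Nr4a2 and Cux2), against 26.2% of all genes. It met an H3K27ac peak at E13.5 at 4 (Tbr1, Eomes, Bcl11a and Cux2), against 26.9%, and at E15.5 at 5 (Tbr1, Bcl11a, Sox5, Nr4a2 and Cux2), against 28.5%. At Bcl11b the H3K27me3 peak, 135 bp wide and at -1719 to -1585 bp from the TSS, met no acetylated site of any stage. Over all zones of the 9 genes, 16.8% of the 101 H3K27me3 peaks of Ebf2-EGFP- cells overlapped E11.5 Ebf2-EGFP+ acetylation and 39.6% that of E13.5, close to the 21.7% and 37.7% over the whole list.

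**Figure D2:**
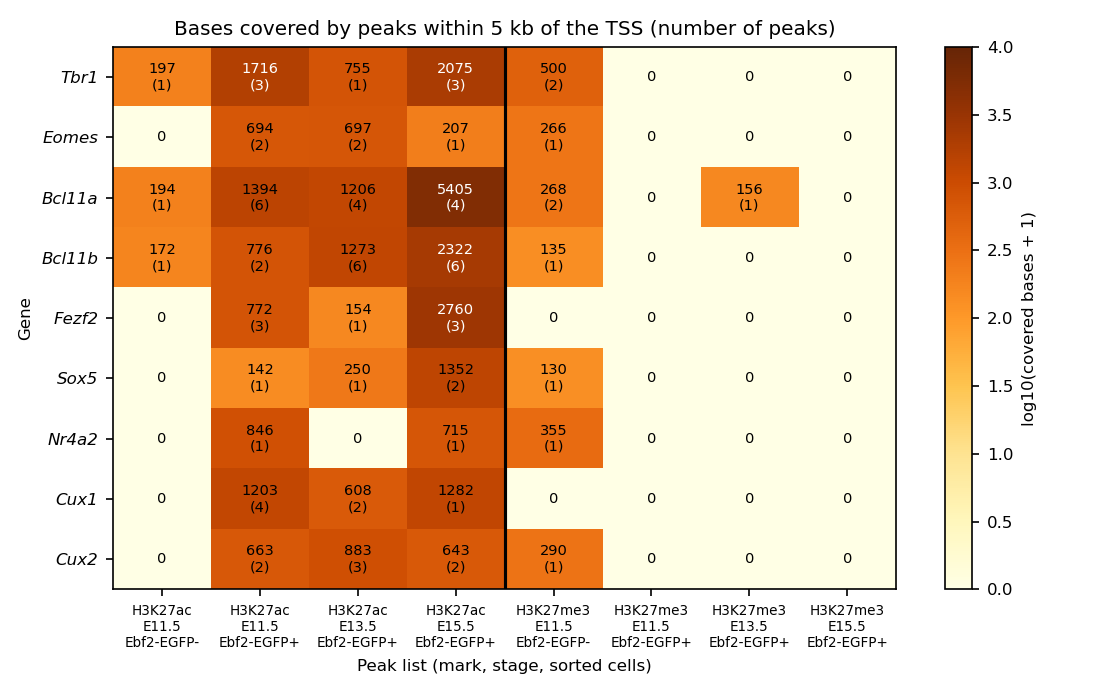
Bases covered by peaks within 5 kb of the TSS for each factor (rows) in each list (columns), with the number of peaks in brackets and colour on a log10 scale. Left of the line is H3K27ac and right of it H3K27me3; Bcl11a at E15.5 has the highest value (5405 bp), and the H3K27me3 columns of Ebf2-EGFP+ cells are 0 except for Bcl11a at E13.5 (156 bp).

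The T-box factors Tbr1 and Eomes act in sequence in the same lineage, and their starts differed in extent. In the order E11.5 Ebf2-EGFP-, then E11.5, E13.5 and E15.5 Ebf2-EGFP+, H3K27ac peaks covered 197, 1716, 755 and 2075 bp of the 10 kb window around the Tbr1 TSS. In the same order the cover at Eomes was 0, 694, 697 and 207 bp. Tbr1 was thus covered more widely in each list, and at E15.5 its cover exceeded that of 99.0% of all genes while that of Eomes exceeded 50.9%. Tbr1 (chr2:61802930-61814114, plus strand) had 1 site acetylated at all 3 stages over coding sequence, 1982 to 3112 bp past the TSS, and a further one in its body, 8359 to 9629 bp past it, over coding and UTR sequence. The first overlapped both H3K27me3 peaks of Ebf2-EGFP- cells (294 and 206 bp wide) and their 197 bp H3K27ac peak. The second held a 116 bp H3K27me3 peak of E13.5 Ebf2-EGFP+ cells. At Eomes (chr9:118478212-118486132, plus strand) the acetylated site in all 3 stages ran from 444 to 1306 bp past the TSS, across UTR and coding sequence, and no peak of any list fell in the 2.92 kb of its body beyond the window.

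Bcl11a and Bcl11b encode related zinc finger proteins, the second of which is the classic marker of layer V neurons. Both were acetylated in all 4 lists. The cover at Bcl11a was 194, 1394, 1206 and 5405 bp in the order above, the last in 4 peaks of which the widest spanned 3519 bp, from -2177 to 1341 bp around the TSS. Just 7 of all genes had more H3K27ac cover in the E15.5 list. Another protein-coding gene, A830031A19Rik, also starts upstream within the Bcl11a window. Its start was the nearest, at 1080 bp, to an E13.5 H3K27ac peak at -1922 to -1333 bp from the Bcl11a TSS. It was also the nearest, at 1189 bp, to an H3K27me3 peak of Ebf2-EGFP- cells at -1813 to -1684 bp. At Bcl11b the cover was 172, 776, 1273 and 2322 bp, and the number of peaks 1, 2, 6 and 6. Cover at both genes was thus highest at E15.5, the stage at which the median peak width of the list was also highest (284 bp, against 212 and 183 bp at E11.5 and E13.5).

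At Bcl11a (chr11:24078056-24174123, plus strand) peaks of different lists and marks lay in a short stretch of an intron. The E11.5 Ebf2-EGFP- list, of 1 library, had an H3K27ac peak 1651 to 1844 bp past the TSS. E11.5 Ebf2-EGFP+ cells had none on those bases, but had an H3K27ac peak close by, at 1963 to 2104 bp. E13.5 cells had an H3K27me3 peak from 1761 to 1916 bp, and E15.5 cells an H3K27ac peak from 1603 to 1928 bp. The Ebf2-EGFP- H3K27ac peak and the H3K27me3 peak were narrow (194 and 156 bp), and the lists differ in length, so no switch between marks is read from them. Bcl11b (chr12:107910403-108003602, minus strand) had 2 acetylated sites in all 3 stages of Ebf2-EGFP+ cells upstream of the gene, at -599 to -104 bp and -2954 to -2350 bp from the TSS. The single H3K27ac peak of Ebf2-EGFP- cells lay elsewhere, 359 to 530 bp past the TSS, and met a site of E13.5 and E15.5 there but no E11.5 peak of Ebf2-EGFP+ cells.

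**Figure D3:**
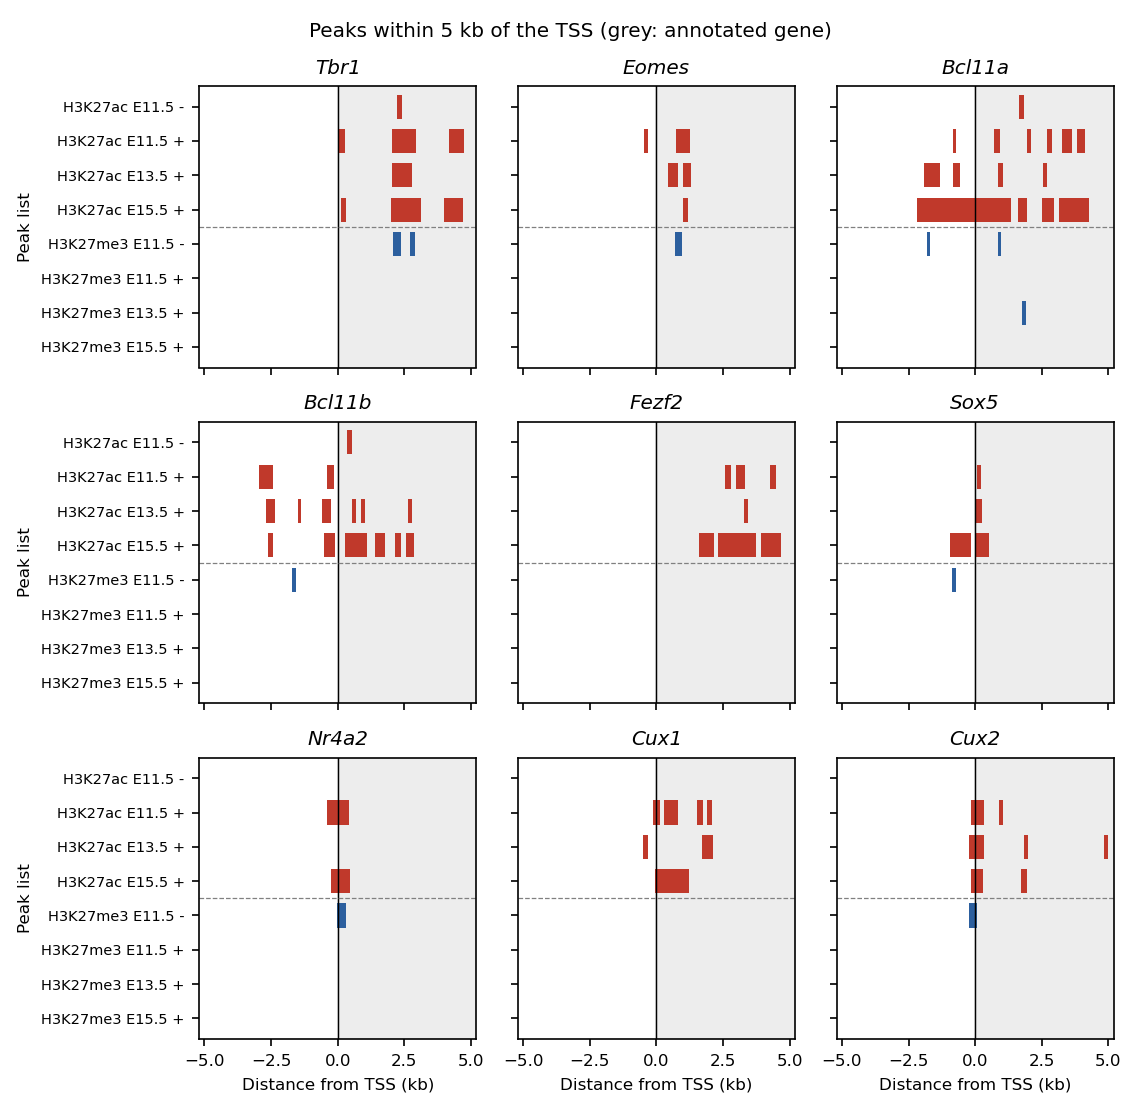
Positions of peaks within 5 kb of the TSS, by distance from the TSS along the gene (kb, horizontal axis), 1 panel per factor and 1 row per list, with + and - for Ebf2-EGFP+ and Ebf2-EGFP- cells. Red bars are H3K27ac and blue bars H3K27me3 peaks drawn to scale, and grey is the annotated gene; the blue bars of the E11.5 - row lie over red bars of at least 1 stage at Tbr1, Eomes, Bcl11a, Sox5 (E15.5), Nr4a2 and Cux2, and away from them at Bcl11b.

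Fezf2, the selector of corticospinal and other subcerebral neurons, carried neither mark at its start in Ebf2-EGFP- cells. Its H3K27ac cover in the order above was 0, 772, 154 and 2760 bp, so that E13.5 was the lowest and E15.5 the highest of the Ebf2-EGFP+ stages. At E15.5 it exceeded the cover of 99.7% of genes, and at E13.5 that of 46.7%. The 3 peaks at E15.5 ran from 1595 to 4690 bp past the annotated 5′ end of the gene (chr14:12342094-12348189, minus strand). In RefSeq the gene starts 2324 bp further in, inside the widest of those peaks (1433 bp), and 2 of the peaks touched its promoter window of 250 bp before and 50 bp after that start. The nearest H3K27me3 peak of Ebf2-EGFP+ cells was 161 bp wide and lay at E11.5, -32.2 kb from the TSS. A site acetylated at all 3 stages lay downstream, 94180 to 94590 bp from the TSS, with the start of Gm49355 as the nearest protein-coding start at 29967 bp.

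Sox5, which times the production of deep-layer and subplate neurons, is the longest of the 9 genes at 954 kb (chr6:143828425-144781977, minus strand). The cover at its start was 0, 142, 250 and 1352 bp, in 0, 1, 1 and 2 peaks, rising with stage across the Ebf2-EGFP+ lists. A 130 bp H3K27me3 peak of Ebf2-EGFP- cells at -856 to -727 bp lay under the second peak of E15.5. The RefSeq start of Sox5 is an internal one, 835 kb into the GENCODE gene, and had no peak of any list within 5 kb. Upstream, an 846 bp acetylated site at -45157 to -44312 bp from the TSS was present at all 3 stages, with Sox5 as the nearest protein-coding gene. The 160 bp H3K27me3 peak that was listed for Sox5 at E13.5 in Ebf2-EGFP+ cells lay within this same site.

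Nr4a2, a nuclear receptor of subplate and claustrum neurons, was the one gene without an H3K27ac peak at its start at E13.5, in the longest list of all. The cover was 0, 846, 0 and 715 bp, in a single peak across the TSS at E11.5 and at E15.5. Marking at E11.5 and E15.5 but not E13.5 was seen at 6.93% of all genes. The 355 bp H3K27me3 peak of Ebf2-EGFP- cells crossed the TSS too, from -44 to 310 bp. Ppia, a housekeeping gene, likewise had H3K27ac peaks at its start at E11.5 and E15.5 and none at E13.5. Within the gene (chr2:57106830-57124003, minus strand) a second site lay in coding sequence about 12.2 kb past the TSS. There, peaks of H3K27ac at E11.5 and E13.5 in Ebf2-EGFP+ cells (209 and 327 bp), of H3K27me3 in Ebf2-EGFP- cells (408 bp) and of H3K27me3 at E13.5 in Ebf2-EGFP+ cells (125 bp) overlapped. At E13.5 a 163 bp H3K27ac peak also lay 123 bp from an internal annotated start of Nr4a2, 9.09 kb from the 5′ end, where Ebf2-EGFP- cells had a 450 bp H3K27me3 peak.

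Cux1 and Cux2 are homeodomain factors of upper-layer neurons. Cux1 (chr5:136248135-136567490, minus strand) carried neither mark at its start in Ebf2-EGFP- cells and H3K27ac cover of 1203, 608 and 1282 bp at the 3 stages of Ebf2-EGFP+ cells. It had no site acetylated in all 3 stages within 5 kb of the TSS, where 1 site was shared by E11.5 and E13.5 and another by E11.5 and E15.5. Cux2 (chr5:121856366-122050102, minus strand) had cover of 663, 883 and 643 bp, the most even of the 9 genes, around 1 site across the TSS at -218 to 350 bp. The 290 bp H3K27me3 peak of Ebf2-EGFP- cells overlapped that site, as at Nr4a2.

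Over the 9 genes, the H3K27ac peaks of the 3 Ebf2-EGFP+ lists merged into 30 sites in the TSS windows, of which 9 were present at all 3 stages (30.0%). Among the 29236 sites in TSS windows of all genes the share was 16.3%. Of the 157 sites in the gene bodies 1 was present at all 3 stages (Tbr1), and of the 180 in the flanks 5 were, which lay at Fezf2, Sox5, Cux1 (2 sites) and Cux2. The 2 sites in the Cux1 flank lay 2100 and 1596 bp from the start of another gene, Sh2b2, and that of Cux2 lay on the start of Pheta1. Sites elsewhere in the genome, here those more than 5 kb from any protein-coding TSS, were present at all 3 stages in 1.23%. The body and flank sites of the 9 genes were not held to that distance, so these shares are not of like sets. In bodies and flanks, 101 and 119 of these sites were listed at E13.5 alone, beside 71615 of the 106715 sites elsewhere, and the E13.5 list is the longest of the mark. Of the 30 TSS sites, 6 were met by an H3K27me3 peak of Ebf2-EGFP- cells, against 29.9% of TSS sites of all genes.

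Away from the starts, the long genes differed in how densely they were marked. In the body beyond the TSS window, H3K27ac peaks were listed for 6 of the 9 genes at E11.5 in Ebf2-EGFP+ cells (29.7% of all genes), 7 at E13.5 (47.1%) and 7 at E15.5 (21.8%), and for 0 in Ebf2-EGFP- cells (1.39%). H3K27me3 peaks lay in 6 bodies in Ebf2-EGFP- cells (34.7%), and in 4, 5 and 1 in Ebf2-EGFP+ cells by stage, against 11.3%, 10.3% and 2.33%. Body lengths differ, from 1.09 kb at Fezf2 to 949 kb at Sox5, and a longer body meets more peaks. Densities were therefore compared among the 4620 genes with a body of at least 50 kb.

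Cux2 stood out in this comparison. In Ebf2-EGFP+ cells its body held 13, 54 and 4 H3K27ac peaks at successive stages, or 6.89, 28.6 and 2.12 peaks per 100 kb, where the medians of the long genes were 0.780, 2.79 and 0.208. At E13.5 48 of the long genes had a higher density. The same body held 16 H3K27me3 peaks in Ebf2-EGFP- cells, 8.48 per 100 kb against a median of 1.20. The GC content of Cux2 was 52.4%, above that of 98.5% of the long genes, and its part in these densities was not tested. Bcl11b, with a GC content of 50.5%, followed with 17.0 H3K27ac peaks per 100 kb at E13.5 and led the 5 long factors at E15.5 with 4.54, a density above that of 97.1% of long genes.

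For H3K27ac at E13.5, Sox5 and Cux1 were nearer to the middle of the long genes. Sox5 held 21 body peaks at E13.5 over its 949 kb, or 2.21 per 100 kb, below the median of 2.79, and its GC content of 42.7% equalled the median of the long genes. Cux1 held 14, or 4.45 per 100 kb, with a GC content of 46.3%. At E11.5 and E15.5 the H3K27ac density of Cux1 was above that of 79.9% and 73.7% of long genes, and that of Sox5 above 43.9% and 69.1%. Bcl11a had 0, 9 and 1 body peaks at the 3 stages, with an E13.5 density of 9.88 per 100 kb that was above that of 84.8% of long genes. Its E11.5 acetylation lay at the start and in the flanks.

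**Figure D4:**
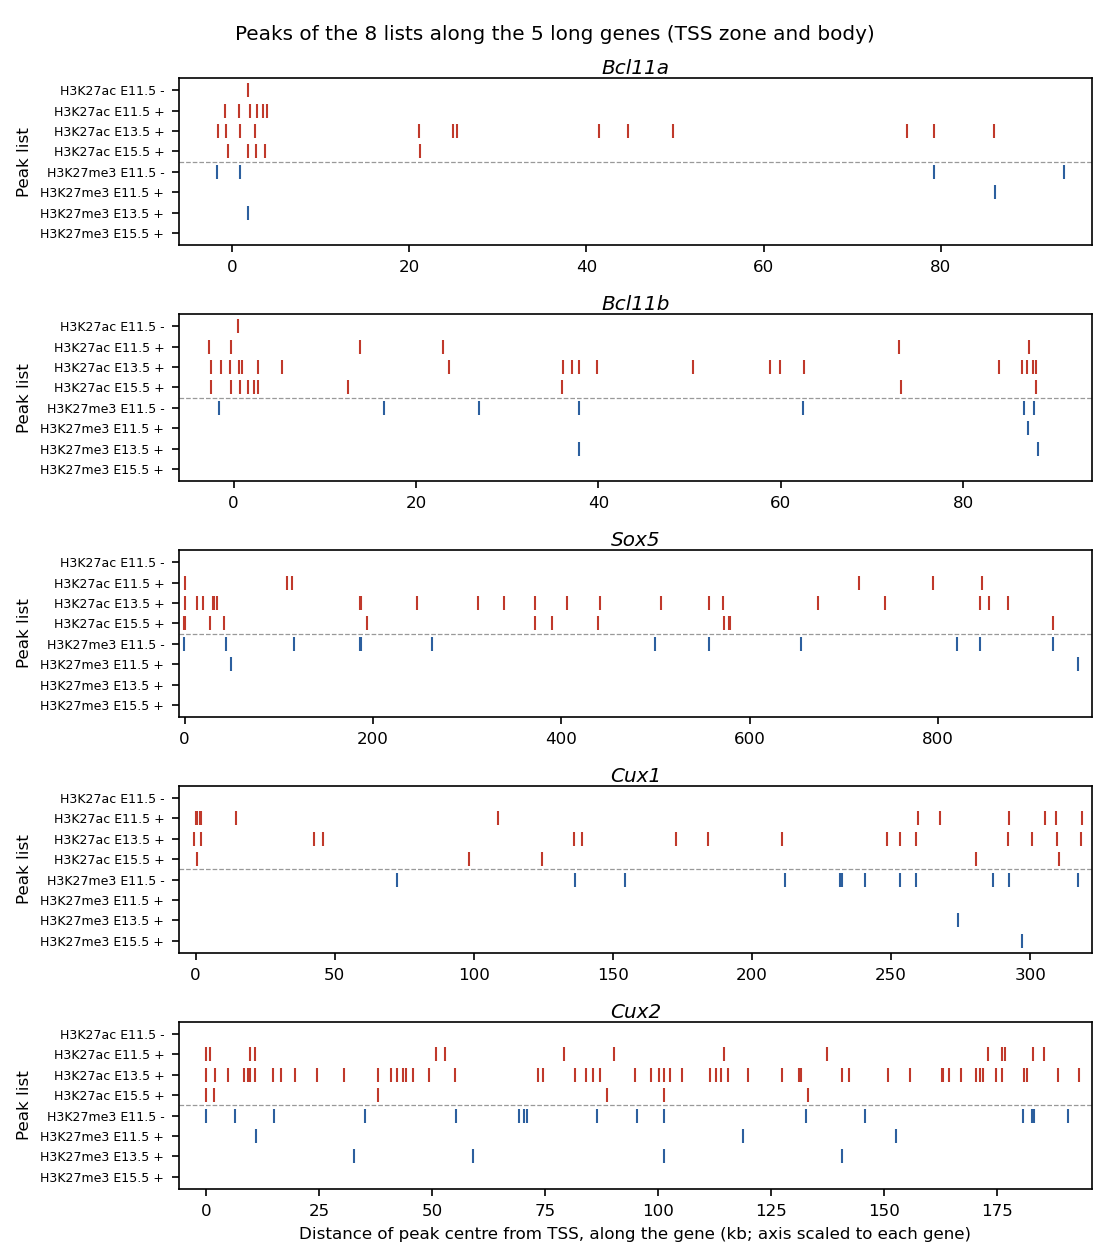
Centres of all peaks in the TSS window and body of the 5 long factors, by distance from the TSS along the gene (kb, horizontal axis, scaled to each gene), 1 row per list, with + and - for Ebf2-EGFP+ and Ebf2-EGFP- cells. Red ticks are H3K27ac and blue ticks H3K27me3; at E13.5 the 54 body peaks of Cux2 are spread over its whole length, while the 21 of Sox5 are spread over 949 kb.

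**Figure D5:**
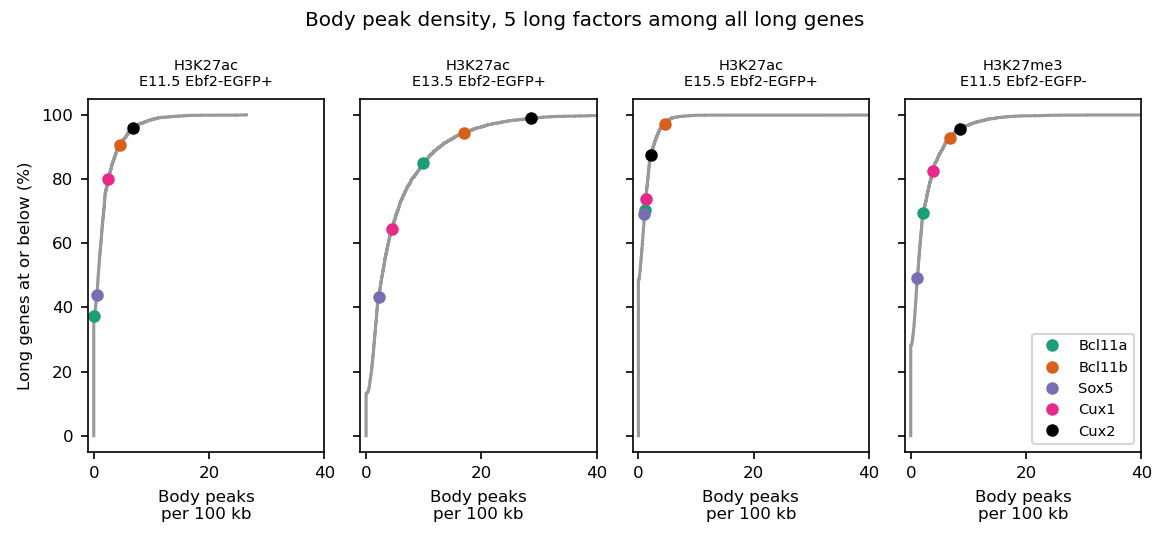
Cumulative share of the 4620 long genes (percent, vertical axis) by body peaks per 100 kb (horizontal axis) in 4 lists, with the 5 long factors as dots. Cux2 lies above 98.9% of long genes at E13.5, and the axis ends at 40 peaks per 100 kb, beyond which 9, 2 and 1 long genes lie in the E13.5 and E15.5 H3K27ac lists and the H3K27me3 list of Ebf2-EGFP- cells.

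H3K27me3 peaks of Ebf2-EGFP+ cells at the 9 loci were few, at most 420 bp wide and, with 1 exception (Bcl11a at E13.5), outside the TSS windows. Over all zones they numbered 18, 20 and 3 by stage, and none of the E11.5 peaks overlapped one of E13.5. Over the whole lists 2.68% of E11.5 peaks did. Some lay in coding sequence, at Bcl11a (236 bp), Bcl11b (420 bp) and Sox5 (411 bp) at E11.5 and at Tbr1 and Nr4a2 at E13.5 as described above. The peak of Bcl11b lay within an H3K27ac peak of 1107 bp of the same cells and stage, 86664 to 87770 bp past the TSS. Of the 20 peaks at E13.5, 8 overlapped an H3K27ac peak of the same cells, as did 38.4% of the whole list.

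In the flanks the factors were marked at shares nearer to those of all genes. H3K27ac peaks were listed there for 8 of the 9 genes at E11.5 (not Nr4a2), 9 at E13.5 and 8 at E15.5 (not Bcl11a) in Ebf2-EGFP+ cells, against 87.2%, 97.2% and 82.3% of all genes, and for none in Ebf2-EGFP- cells, against 15.9%. H3K27me3 peaks were listed for 9 in Ebf2-EGFP- cells (92.0%), then for 5 (48.5%), 6 (49.4%) and 1, Cux2 (13.4%), in Ebf2-EGFP+ cells by stage. Bcl11b, Sox5 and Nr4a2 have no other protein-coding start within 100 kb of either end. Bcl11b had 12, 22 and 2 flank H3K27ac peaks at the 3 stages of Ebf2-EGFP+ cells, most of them nearest to its own TSS (10, 19 and 2). At Cux1 and Cux2 the flanks hold other genes. Of their 35 and 31 flank peaks at E13.5, 9 and 11 lay within 5 kb of the start of another protein-coding gene, and the Cux2 flank site acetylated at all 3 stages lay on the start of Pheta1.

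Other genes of the same neurons, taken as lists by name, are set beside the all-gene shares given above, which for H3K27ac in Ebf2-EGFP+ cells were 49.9%, 60.9% and 52.3% by stage, and for Ebf2-EGFP- cells 4.17% (H3K27ac) and 48.2% (H3K27me3). Of 8 further subplate genes, 5, 7 and 6 had H3K27ac within 5 kb at the 3 stages of Ebf2-EGFP+ cells, and 5 had H3K27me3 in Ebf2-EGFP- cells. Nxph4, a neurexophilin expressed in subplate neurons, was marked in 5 of the 8 lists, the most of this list, while Ccn2 and Zfpm2 were marked in 2 each, the H3K27ac lists of E13.5 and E15.5. Of 8 deep-layer genes, 5, 6 and 3 had H3K27ac by stage and 6 had H3K27me3 in Ebf2-EGFP- cells. There Tle4, Otx1 and Foxp1 were marked in 4 lists each and Etv1, like Lmo3, in 1, for Etv1 the H3K27me3 list of Ebf2-EGFP- cells. Of 8 upper-layer genes, 3, 7 and 4 had H3K27ac by stage and 5 had H3K27me3 in Ebf2-EGFP- cells. Pou3f1 and Pou3f3 were marked in 5 lists each, whereas Inhba had no peak at its start in any list. In each of these lists 0 of 8 starts had H3K27ac in Ebf2-EGFP- cells.

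Markers of other cells were counted in the same way, against the same all-gene shares. In the order of the Ebf2-EGFP+ stages, H3K27ac marked 6, 7 and 5 of 7 Cajal-Retzius genes, 5, 6 and 4 of 6 progenitor genes, 4, 3 and 4 of 5 pan-neuronal genes, and 3, 4 and 2 of 5 GABAergic genes. It marked 1, 2 and 0 of 4 endothelial, 1, 3 and 2 of 4 microglial, 0, 1 and 1 of 4 erythroid and 4, 3 and 4 of 4 housekeeping genes. In Ebf2-EGFP- cells it marked 1 Cajal-Retzius gene, 2 housekeeping genes and 0 of every other list. The part of such cells in the marking of the 9 factors was not tested.

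The 9 genes have 10 promoters of 300 bp in the RefSeq table, and both strands were searched for the T-box motif AGGTGTGA, the E-boxes CAGATG and CAGCTG, the EBF motif TCCCNNGGG, the SOX motif AACAAT, the NR4A motif AAAGGTCA and the LIM homeodomain motif TAATTA. None of these motifs contains another. AACAAT was found in the promoters of Tbr1 and Nr4a2, as in 10.7% of all 32851 promoters, TAATTA in that of Tbr1 (5.29%) and CAGATG in that of Cux2 (17.2%). CAGCTG, TCCCNNGGG, AGGTGTGA and AAAGGTCA were in none, and in 16.3%, 6.56%, 1.28% and 1.51% of all promoters. In 300 bp windows centred on the H3K27ac peaks near the 9 starts, CAGCTG was in 4 of 24 at E11.5, 8 of 20 at E13.5 and 5 of 23 at E15.5, against 22.6%, 23.8% and 20.3% of all peaks of each list. The other E-box, CAGATG, was in 2 of 24, 2 of 20 and 3 of 23, below the 20.8%, 23.4% and 17.6% of all peaks. AGGTGTGA and AAAGGTCA were in none of the windows. Among all peaks, AGGTGTGA was in 1.30%, 1.56% and 1.24% by stage and AAAGGTCA in 0.936%, 0.961% and 0.853%. TCCCNNGGG, the motif of the EBF family to which Ebf2 belongs, was in 3, 2 and 3 of these windows, against 10.4%, 10.1% and 10.2%, and a window at Sox5 held it at each stage. AACAAT was in 2 of 24, 2 of 20 and 2 of 23 windows by stage, at Bcl11a and from E13.5 also at Bcl11b, against 4.37%, 5.26% and 4.58%. TAATTA was in 0, 0 and 2 windows, the latter at Bcl11b and Fezf2 (8.70% against 1.19% at E15.5). Of the 6 sequences shown above, the Nr4a2 promoter held AACAAT, as did 3.65% of windows of its length, and no other match was found in them.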

How the data were processed

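The series holds 23 samples in 12 groups: 15 ChIP samples in 8 groups and 8 input samples. The authors sorted cells by EGFP, aligned reads to mm10 with Bowtie 1.1.2, allowing up to 3 mismatches, and called peaks with MACS at p 1e-05. The MACS version, the pooling of libraries and the use of input are not given in the sources used here. They deposited 1 peak list per ChIP group, with positions and a score column that holds 0 for every peak, so that neither height nor depth was available. The deposited starts were read as 0-based, and a start may be off by 1 bp.

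Peaks were assigned with Python 3.11.15 and numpy 2.4.6 to the 21938 protein-coding genes that GENCODE M21 places on chromosomes 1 to 19, X or Y: within 5 kb of the TSS, in the rest of the body, and within 100 kb of either end. A peak counted with an overlap of at least 1 bp. Acetylated sites are merged overlapping H3K27ac peaks of the 3 Ebf2-EGFP+ lists. The zone assignment was tested on simulated data. Sequences were read from GRCm38 and promoters from RefSeq (GRCm38.p6), which held all 9 genes.

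The 9 genes and all lists were chosen with earlier results of these data known. All 9 were named, and in other lists those with the most and fewest lists marked, apart from some items that are not reported here. CpG counts and RefSeq starts were added after seeing the data. The alternatives were other windows, starts, peak widths, list lengths, nearest-gene assignment and overlap rules.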

Additional observations from a re-analysis of the deposited data

How the results depend on the processing

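No paired analysis was possible because each group gave 1 peak list, and no replicate could be left out for the same reason. Of 56 alternatives for the starts, 39 changed no count by over 1.5 times, including merged peaks and the RefSeq start, an alternative chosen after seeing the data. Some of the 39 could not change. These include the Ebf2-EGFP- H3K27ac list cut to its own length, and smaller sets of the Ebf2-EGFP+ H3K27me3 lists whose count was already 0. With a 1 kb window, H3K27ac in Ebf2-EGFP- cells marked 1 gene (Bcl11b) and H3K27me3 at E13.5 in Ebf2-EGFP+ cells 0. With any annotated start, H3K27me3 in Ebf2-EGFP+ cells marked 1 gene (Cux2) at E11.5 and 2 at E13.5. With peaks of at least 300 bp, H3K27ac in Ebf2-EGFP- cells marked 0, H3K27me3 in Ebf2-EGFP- cells 1 and at E13.5 in Ebf2-EGFP+ cells 0. With each list cut to its 1386 (H3K27ac) or 1438 (H3K27me3) widest, H3K27ac marked 2, 1 and 4 by stage in Ebf2-EGFP+ cells, beside 3 in Ebf2-EGFP- cells. In the same cut, H3K27me3 marked 0 in Ebf2-EGFP- cells and 0 at E13.5. Lowered at random to that length, the expected numbers were 0.857, 0.265 and 1.16 for H3K27ac by stage, 0.263 for H3K27me3 in Ebf2-EGFP- cells and 0.214 at E13.5, since fewer peaks were left. The flanks changed in 12 of 32 alternatives, and those of H3K27ac in Ebf2-EGFP- cells could not change, as the count was already 0. Counting flank peaks nearest to the gene's own start, 5 genes had H3K27ac at E11.5 in Ebf2-EGFP+ cells, 5 had H3K27me3 in Ebf2-EGFP- cells and 0 at E15.5. With peaks of at least 300 bp, H3K27me3 in Ebf2-EGFP+ cells was at 0, 0 and 0 flanks by stage. With the widest peaks, H3K27ac was at 0, 1 and 0 flanks by stage, and H3K27me3 at 1 in Ebf2-EGFP- cells, 1 at E11.5 and 3 at E13.5 in Ebf2-EGFP+ cells. With a reciprocal overlap of 50%, 14.6% of the E11.5 H3K27ac peaks were shared with E13.5 and 14.6% with E15.5, and 5.88% of the E13.5 peaks with E15.5. By that rule 6.93%, 17.8% and 7.92% of H3K27me3 peaks of Ebf2-EGFP- cells met H3K27ac of Ebf2-EGFP+ cells by stage. With peaks of at least 300 bp, 47.8% of E11.5 H3K27ac peaks were shared with E15.5, for which the cause was not tested. Depth is unknown, so an unmarked start may lie below detection.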
